A study of Homo sapiens with 9 samples.

Results

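The stereoprobes WX-02-23 and WX-02-43 were compared with each other by ATAC-seq, which maps open chromatin through the insertion of adapters by a transposase. The comparison covers 6 of the 9 libraries of the series, chosen by their labelled treatment. All groups were 22Rv1 cells, a human prostate carcinoma line, in which the splicing factor SF3B1 carries the C1111S change. WX-02-23 was applied in 3 of the libraries and its stereoisomer WX-02-43 in another 3, each compound at 20 µM for 3 h. The vehicle, DMSO at 0.1% for 3 h, was applied in the other 3, which serve here only as values set beside the comparison. The labels do not say whether the edited cells are a single clone, nor whether replicates were separate cultures, so the spread behind each p-value is that of these libraries and may be technical. Intervals of the 6 peak lists that shared at least 1 bp were merged into 123831 regions, against 128994 when all 9 lists are merged.

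FOXA1 is a pioneer factor: it binds its forkhead sites in closed chromatin and makes them accessible to other factors, in prostate luminal cells above all to the androgen receptor. The series concerns covalent compounds in relation to this function. No FOXA1 site was examined here, so whether either compound redirects this function was not tested. The cysteine that the C1111S change removes is a site through which WX-02-23 is known to engage SF3B1, and every group compared here lacks it. A pair of stereoisomers shares the same bonds but not the same shape, and such a pair is commonly used to separate effects that need a fitted binding site from effects of reactivity alone. An ATAC-seq peak can lie at a promoter or an enhancer. Genes and sequences were not assigned here, because the regions are in hg19 coordinates and no genome or annotation of that build was used.

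Per list, 82318 to 105132 peaks were called, and 63342 of the 123831 regions (51.2%) were held by all 6 lists. The strength of a peak is given in 3 ways. The strength percentile is the place of the peak in its own list when ordered by −log10 p, from 0 for the weakest to 100 for the strongest. Fold enrichment is the authors' ratio of the summit over the background around it. The number of fragments at the summit was solved from fold and p, and a whole number matched the deposited −log10 p within 0.002 for 100% of summits in every list. In bulk cells a lower value cannot tell fewer cells with an open region from a less open region in each cell.

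As wholes, the libraries of the 2 compounds overlapped in median percentile and median width but not in median fold. The WX-02-23 libraries had a median percentile over shared regions of 66.3 ± 2.8, and the WX-02-43 libraries of 64.6 ± 3.45 (SD, n = 3 each; exact two-sided permutation p = 0.6). The difference of 1.79 points had a 90% interval from -2.63 to 8.94. Median log2 fold was 3.17, 3.11 and 3.14 in the WX-02-23 libraries and 3.01, 3.07 and 3.07 in the WX-02-43 libraries. The 2 groups did not overlap in this value, and their means differed by 0.09 (90% interval 0.03 to 0.17; exact permutation p = 0.1, the smallest that 3 against 3 can give; adjusted p = 0.4 over 4 such measures). Median width was 434 ± 37 bp against 407 ± 31.6 bp (SD, n = 3 each; exact permutation p = 0.6, interval from -21 to 105 bp). The percentile difference changed sign without WX-02-43 replicate 1 (-0.181). Because of the library-wide shift in fold, folds and fragments were centred on each library's median before regions were tested.

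Within the shared regions, peak strength differed between the compounds in both directions. In limma on the strength percentile, 681 regions (1.08% of the 63342 tested) were higher with WX-02-23 and 541 (0.854%) were lower, together 1.93%, with an adjusted p under 0.05. The median difference in called regions was 32.4 points upward and -29.6 points downward. The smallest called differences were 3.81 and -3.6 points, near the top of the lists where replicates lay close together, and the largest were 74.3 and -69.2. In each of the 1222 called regions the 3 values of WX-02-23 and the 3 of WX-02-43 did not overlap. Over all 63342 shared regions, 7005 (11.1%) were separated upward and 3878 (6.12%) downward.

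**Figure D1:**
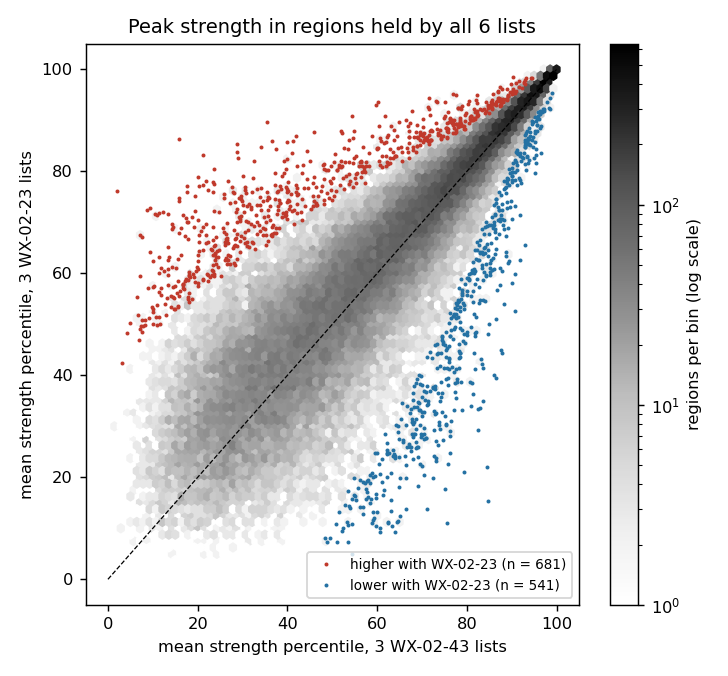
Mean strength percentile of each region held by all 6 lists, with WX-02-43 on the x axis and WX-02-23 on the y axis. Grey shading counts regions per bin on a log scale, the dashed line marks equal values, red points are the 681 regions called higher with WX-02-23 and blue points the 541 called lower; called regions lie nearer the diagonal as strength increases.

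Fold enrichment gave 569 regions higher with WX-02-23 (0.898% of those tested) and 731 lower (1.15%), together 2.05%, by limma at the same threshold. The median called difference was 0.67 and -0.66 on the log2 scale. Of the 681 regions higher by percentile, 413 (60.6%) were also higher by fold, which is 72.6% of the 569. Of the 541 lower by percentile, 395 (73%) were also lower by fold, which is 54% of the 731. No region called in percentile, fold, width or fragments was called in the opposite direction in another of these 4. The 4 measures come from the same peaks, so this is no separate support for the calls. The direction of the excess depended on the scale. Without centring, 707 regions were higher and 270 lower by fold. When percentiles were ranked among shared regions only, 943 were higher and 1156 lower. In equal-length lists 774 were higher and 929 lower.

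Fragments at the summit, a measure chosen after the data were seen, separated the compounds in more regions. By limma on centred log2 fragments, 2470 regions (3.9%) were higher with WX-02-23 and 2030 (3.2%) lower, together 7.1% of the 63342. Nearly every percentile call was among them, with 674 of 681 higher and 538 of 541 lower. Fragments were solved from fold and p, and the percentile orders the same p, so this overlap is no separate support for the calls. The median called difference was 0.61 upward and -0.65 downward (log2), and 247 higher and 216 lower regions differed by at least 1 log2 unit. Leaving out any 1 of the 6 libraries left 1772 to 2196 higher and 1517 to 1747 lower regions. Without centring, 723 higher and 802 lower regions were called, all of them among the centred calls of the same direction. In these fits limma took a region's variance largely from a trend over all regions. The p-values and intervals for fragments thus reflect little of a region's own replicate spread. A fit without that trend was run for percentile but not for fragments. On the trend's variance, the interval excludes a large difference for most regions. The 95% interval for the difference in fragments lay within 1 log2 unit of 0 in 96.6% of shared regions and within 0.5 in 64.2%.

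Counts by percentile and by fold varied with the libraries used. Without WX-02-23 replicates 1, 2 and 3 in turn, percentile calls numbered 169, 152 and 154 higher and 489, 206 and 208 lower. Without WX-02-43 replicates 1, 2 and 3 they numbered 459, 359 and 547 higher and 322, 96 and 129 lower. Without limma's variance trend, 79 were higher and 46 lower by percentile, and the percentile calls of chr11:114000674-114001345, chr3:27554103-27554466, chr6:155337084-155337559, chr5:135830332-135831057, chr11:132465447-132466121, chr18:189217-189791 and chr9:105176471-105177005 were lost. Fold calls ran over the same 6 omissions as 243, 320, 319, 281, 398 and 416 higher and 457, 451, 492, 273, 411 and 374 lower.

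The region with the largest percentile difference lay at chr11:42583600-42584183 (hg19, as all coordinates here). Its percentile was 82.2, 68.5 and 78.1 in the WX-02-23 libraries and 3.08, 2.36 and 0.467 in the WX-02-43 libraries. The groups were far apart, at 41, 24 and 34 fragments against 9, 9 and 8, and at 13 ± 1.68 fold against 4.14 ± 0.387 fold (SD, n = 3 each). The percentile difference was 74.3 points (SE 8.67, limma adjusted p = 0.00097). Of the DMSO lists, 2 held a peak there, at percentiles of 22.7 and 20.8.

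A second region at chr11:114000674-114001345, held 66, 52 and 62 fragments with WX-02-23 and 13, 18 and 20 with WX-02-43. It was also among the strongest of this set, with percentiles of 87, 84.5 and 87.5 against 1.88, 16.4 and 29.4. The DMSO libraries held 15, 17 and 26 fragments, overlapping WX-02-43 and well under WX-02-23. The difference in fragments was 1.85 log2 units (SE 0.14, limma adjusted p = 1.47e-33), or 3.61 times. This SE and p-value rest mainly on the variance fitted across regions, not on these libraries at this region.

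At chr6:103118354-103118970, WX-02-23 gave 35, 32 and 23 fragments and WX-02-43 gave 11, 10 and 10. A single DMSO list held this region, with 8 fragments, so both WX-02-43 and that library stood near the lowest summits called. At chr11:27209611-27210196, fragments were 50, 45 and 40 with WX-02-23, 14, 11 and 13 with WX-02-43, and 14, 20 and 20 in DMSO. Here DMSO lay at or above WX-02-43 and under WX-02-23 in all 3 libraries. The other 4 of the 8 largest upward differences lay at chr1:249217592-249218125, chr3:27554103-27554466, chr6:167068683-167069109 and chr5:101265317-101265726. Their mean percentiles were 67.6 to 72.4 with WX-02-23 and 7.13 to 10.9 with WX-02-43, and fragments were 2.51 to 3.02 times higher.

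**Figure D2:**
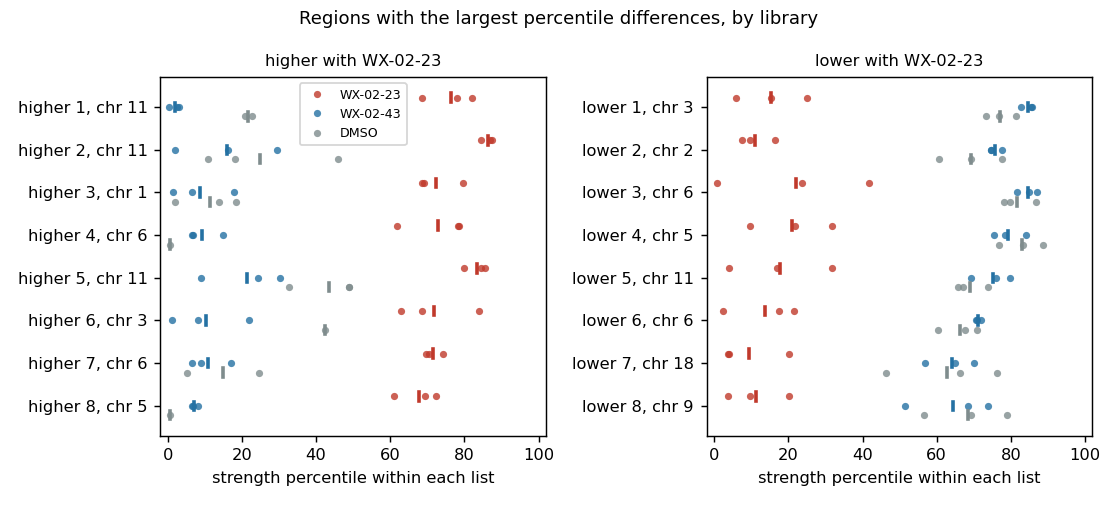
Strength percentile (x axis) of the 8 regions with the largest upward and the 8 with the largest downward difference (y axis, with chromosome). Points are libraries, bars group means, and a missing point means that no peak was called; in each row the WX-02-23 points are separate from the WX-02-43 points.

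The largest downward difference lay at chr3:25638964-25639805. The WX-02-23 libraries stood at percentiles of 15.2, 5.99 and 25, and the WX-02-43 libraries at 82.8, 85.5 and 85.6. Fragments were 16, 12 and 17 against 49, 57 and 60, and 40, 45 and 54 in DMSO. WX-02-23 was thus under every other library of the series, at 4.56 ± 0.578 fold against 10.9 ± 0.348 (SD, n = 3 each). The percentile difference was -69.2 points (SE 7.84, limma adjusted p = 0.00097).

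At chr6:155337084-155337559, WX-02-23 gave 14, 7 and 17 fragments, WX-02-43 gave 45, 54 and 54, and DMSO gave 40, 42 and 58. This was the largest called difference in fragments, -2.08 log2 units (SE 0.17, limma adjusted p = 4.97e-30), although the 3 WX-02-23 lists spread from percentile 0.806 to 41.8. Here too the SE rests mainly on the variance fitted across regions. At chr2:212516849-212517413, fragments were 10, 9 and 11 with WX-02-23, 29, 33 and 32 with WX-02-43, and 26, 22 and 35 in DMSO. At chr5:135830332-135831057 they were 14, 9 and 12 against 38, 48 and 38, with 36, 44 and 58 in DMSO. In both regions DMSO overlapped WX-02-43 and no WX-02-23 library reached it. The remaining regions of this group lay at chr11:132465447-132466121, chr6:108544748-108545504, chr18:189217-189791 and chr9:105176471-105177005. Their mean percentiles were 9.35 to 17.7 with WX-02-23 and 64 to 75.1 with WX-02-43. The last of these lost its call without WX-02-43 replicate 2.

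Regions were also named among those with a mean percentile over the 6 libraries of at least 75. The 12 named here reached that mean through the group in which they were higher, since the other group's mean percentile was 59.8 to 67.8 in the upward and 60 to 65.5 in the downward regions. At chr12:80623181-80623772, WX-02-23 gave 74, 43 and 61 fragments, WX-02-43 gave 23, 21 and 21, and DMSO gave 10, 10 and 20. The fold was 19.2 ± 2.42 against 9.59 ± 0.714 (SD, n = 3 each), a difference of 0.9 log2 units after centring (SE 0.1, limma adjusted p = 0.00077). DMSO was here the lowest group, with 6.61 ± 2.43 fold.

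DMSO did not always lie with WX-02-43 in these regions. At chr10:123794531-123795104, fragments were 73, 64 and 65 with WX-02-23, 25, 23 and 26 with WX-02-43, and 39, 40 and 53 in DMSO, which lay between the compounds without overlap. At chr19:18140510-18141148, WX-02-23 gave 75, 63 and 68, WX-02-43 gave 34, 37 and 35, and DMSO gave 54, 59 and 64. There DMSO overlapped WX-02-23 in fragments, and WX-02-43 was the group that stood apart. At chr7:17252139-17252628, the values were 71, 58 and 54 against 25, 28 and 25, with 14, 24 and 16 in DMSO. The regions at chr5:40446908-40447407 and chr1:72955477-72955860 were 2.04 and 1.87 times higher in fragments. The first of them lost its fold call without WX-02-23 replicate 1 or without replicate 2.

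Among those that were lower, chr15:41236830-41237544 held 45, 31 and 39 fragments with WX-02-23, 76, 73 and 91 with WX-02-43, and 75, 69 and 93 in DMSO. Its fold fell from 10.1 ± 0.72 with WX-02-43 to 6.06 ± 0.502 with WX-02-23 (SD, n = 3 each; limma adjusted p = 0.00415). At chr7:86596049-86596760, fragments were 32, 24 and 21 against 60, 64 and 64, with 67, 65 and 65 in DMSO. At chr10:73391177-73391843, they were 44, 27 and 34 against 72, 82 and 85, with 75, 75 and 94 in DMSO. In these 3 regions DMSO lay close to WX-02-43 and every WX-02-23 library was lower. The regions at chr13:89066870-89067360, chr15:23791189-23791950 and chr8:29614290-29614889 fell to between 0.451 and 0.483 times the fragments with WX-02-43. The fold call at chr15:23791189-23791950 was lost when folds were not centred.

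**Figure D3:**
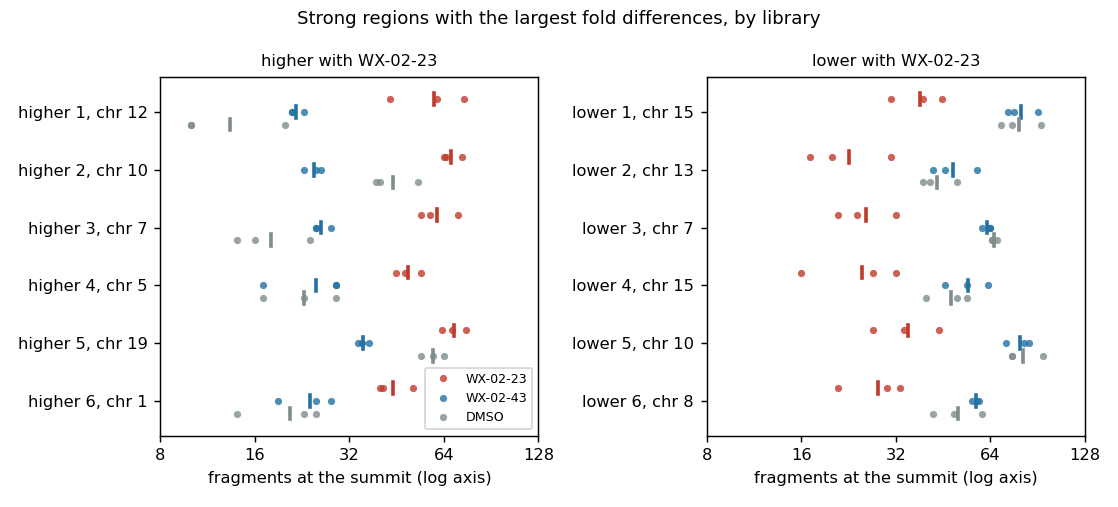
Fragments at the summit (x axis, log scale) in the 6 regions with the largest upward and the 6 with the largest downward fold difference among those with a mean percentile of at least 75 (y axis, with chromosome). Points are libraries and bars group means; DMSO points lie with WX-02-43 in the lower regions and vary in place in the higher regions, such as that on chromosome 19, where DMSO gave 54, 59 and 64.

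DMSO, which took no part in choosing the regions, was set beside the called regions as a whole. Of the 681 regions higher with WX-02-23 by percentile, 539 had a peak in all 3 DMSO lists, and there the median percentile was 81.9 with WX-02-23, 53.1 in DMSO and 53.9 with WX-02-43. DMSO was nearer to WX-02-43 than to WX-02-23 in 475 of the 539 (88.1%) and nearer to WX-02-23 in 64. All 541 lower regions had a peak in each DMSO list, with medians of 47.8 for WX-02-23, 76.4 for DMSO and 78.6 for WX-02-43. DMSO was nearer to WX-02-43 in 513 (94.8%) and nearer to WX-02-23 in 28. Over all shared regions with a peak in the 3 DMSO lists, it was nearer to WX-02-43 in 55%. Fragments gave 1918 of 2183 higher regions (87.9%) and 1684 of 2018 lower regions (83.4%) on the side of WX-02-43. The 142 higher regions left out lacked a peak in 1 or more DMSO lists, and 12 had none in any. These values describe where the vehicle lay and were not tested.

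**Figure D4:**
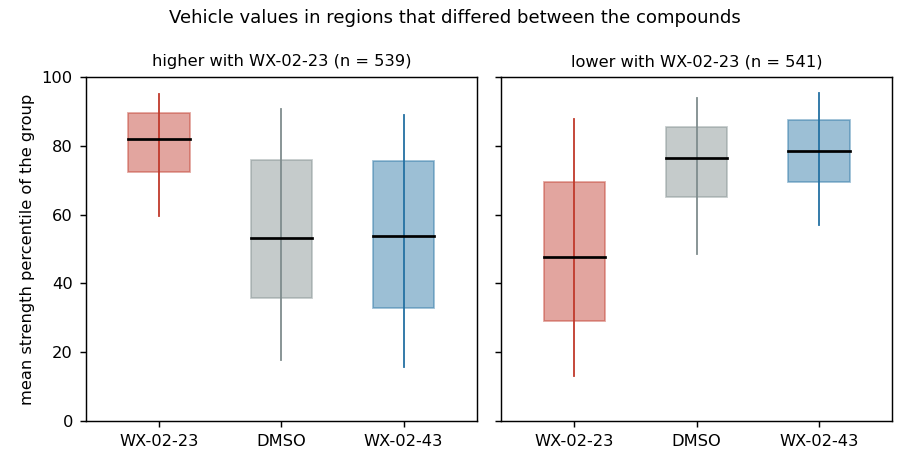
Mean strength percentile of each group (y axis) in the called regions with a peak in all 3 DMSO lists. Boxes span the 25th to the 75th percentile of regions, lines the 5th to the 95th, and black bars the median; DMSO sits at 53.1 in the higher and 76.4 in the lower regions, beside WX-02-43.

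The share of regions called varied with peak strength. Shared regions were divided into 4 bins of equal size by mean percentile, from bin 1 (weakest) to bin 4 (strongest). By fragments, 2.86% were higher and 2.69% lower in bin 1, 5.29% and 4.41% in bin 2, 5.39% and 4.3% in bin 3, and 2.06% and 1.42% in bin 4. By fold, bin 4 held 8 higher and 23 lower calls among 15836 regions. The spread between replicates narrowed with strength, since the median SD within a group was 11.2 percentile points in bin 1 and 1.55 in bin 4. In regions called by percentile, peaks were also broader in the group where they were stronger. Width and strength are measured on the same peaks, so this is no separate support for the calls. Peaks called higher by percentile had a median width of 531 bp with WX-02-23 and 355 bp with WX-02-43, and those called lower 387 bp and 517 bp. Over all shared regions the medians were 433 bp and 408 bp. By limma on width, 8 of the 681 higher and 7 of the 541 lower regions were called in the same direction.

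Every chromosome held calls in both directions. By fragments, the share higher ran from 1.49% on chromosome 22 to 5.51% on chromosome 8, and the share lower from 0.574% on chromosome 19 to 4.39% on chromosome 13. Chromosome 19 had 56 higher and 16 lower calls among 2786 regions. Neighbours were counted within 10 kb. Another higher region lay within 10 kb of 7% of the 2470 higher regions, against 2.52% of all shared regions. For lower regions beside lower regions the values were 4.29% and 1.74%. A lower region lay within 10 kb of 1.78% of higher regions, close to the 1.74% of all shared regions. Regions in all lists of 1 compound and none of the other lay more often near calls of both directions. Those of WX-02-43 lay within 10 kb of 1.66% of higher and 2.32% of lower regions, against 0.971% of all shared regions. For those of WX-02-23 the values were 3% and 2.36%, against 1.85%. Regions that nearly touch can share fragments, and these shares were not tested.

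Regions called in the lists of only 1 compound were weaker than the shared ones. WX-02-23 alone was marked by 1861 regions held by its 3 lists and by no WX-02-43 list (1.5% of 123831), and WX-02-43 alone by 1049 (0.847%). Their mean percentile had a median of 23.2 and 22.9, and their median summit held 13 and 14 fragments. In the list that ranked them lowest, 61 and 28 of them stood at the 50th percentile or above. Regions held by 3 lists of 1 compound and 1 list of the other numbered 2640 for WX-02-23 and 1725 for WX-02-43. When every list was trimmed to the same number of peaks, 1480 and 1393 regions had the 3 against 0 pattern, nearly equal numbers. Regions of WX-02-23 numbered 3477 or 3620 when its replicate 2 or 3 was left out, and 2853 or 3183 when WX-02-43 replicate 2 or 3 was. Those of WX-02-43 numbered 2202 when WX-02-23 replicate 1 was left out and 2508 when its own replicate 1 was. With a library left out the rule asks for fewer lists, so such counts can only rise. Signal under the authors' threshold can still be present where a list has no peak.

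DMSO lists held the 2 kinds of one-sided region at different rates. Of the 1861 regions of WX-02-23, 1161 (62.4%) were in no DMSO list and 104 (5.59%) in all 3. Of the 1049 regions of WX-02-43, 91 (8.67%) were in no DMSO list and 476 (45.4%) in all 3. Regions in 3 WX-02-23 lists and 1 WX-02-43 list were in no DMSO list in 22.8% and in all 3 in 20.8%. For 1 WX-02-23 list and 3 WX-02-43 lists these shares were 5.97% and 49.1%. Regions in 2 WX-02-23 lists and 1 WX-02-43 list were absent from DMSO in 26%, and those in 1 and 2 lists in 18.7%. The region that ranked highest in its lowest list lay at chr13:105137888-105138519, with 45, 33 and 40 fragments at the summit, which stood at the same base in all 3 WX-02-23 lists. The highest for WX-02-43 lay at chr6:125462447-125462859, with 27, 27 and 28 fragments and 17, 22 and 24 in DMSO.

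**Figure D5:**
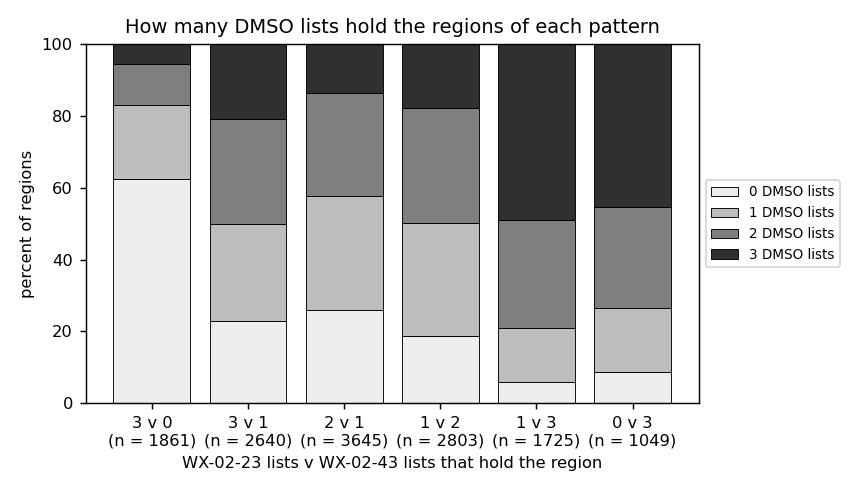
Share of regions (y axis, percent) held by 0, 1, 2 or 3 DMSO lists, for regions grouped by how many WX-02-23 and WX-02-43 lists hold them (x axis). The pale part, in no DMSO list, is 62.4% of the regions held only by WX-02-23 and 8.67% of those held only by WX-02-43.

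By limma on log2 width, 46 regions (0.0726%) were wider with WX-02-23 and 19 (0.03%) narrower, together 0.103%. The 95% interval reached a median of 0.4 log2 units to either side, and the low count does not show that widths were alike elsewhere. The widening at chr1:249217592-249218125 went with strength, at 534, 476 and 488 bp against 150, 150 and 189 bp, and with 45, 29 and 33 fragments against 11, 11 and 15. At chr11:48130905-48131761, widths were 809, 827 and 794 bp with WX-02-23 and 278, 269 and 247 bp with WX-02-43, yet fragments were 35, 22 and 19 against 23, 27 and 30. The groups were separate in width and overlapped in strength there. Likewise at chr1:245206027-245206596, widths were 165, 199 and 211 bp against 570, 538 and 505 bp, at 31, 28 and 28 against 26, 30 and 32 fragments. The DMSO widths at that place, 561, 330 and 256 bp, ran from near the values of WX-02-23 to within those of WX-02-43. No width call remained when the bases covered by all peaks of a list were used (0 regions by limma, with 5194 at an unadjusted p under 0.05), or without any 1 of the 6 libraries (0 regions, with 4084 to 4823).

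Summit positions were compared in the 51308 regions with a single peak per list. Summits of the same region lay a median of 25 to 29 bp apart between libraries of different compounds, 26 to 27 bp within WX-02-23 and 25 to 27 bp within WX-02-43. Unadjusted p was under 0.05 in 4.99% of the regions, about the share that this threshold gives when no summit differs. The 95% interval of a summit difference, before adjustment, reached a median of 57.1 bp to either side. In simulated data 0% of the 50 bp shifts and 0% of the 100 bp shifts were called after adjustment. Shifts of such sizes were thus mostly not detectable. By limma, 59 regions (0.115%) had summits displaced by at least 20 bp, 28 (0.0546%) toward higher coordinates with WX-02-23 and 31 (0.0604%) toward lower ones. With a replicate block no summit was called in either direction, although replicate numbers did not pair the samples. The called displacements ran from 117 to 593 bp upward and from -136 to -669 bp downward, sizes set in part by what the test could detect. They lay in wide regions with a median of 849 and 832 bp.

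Of the 31 regions displaced toward lower coordinates, 4 (12.9%) were also called lower in strength by percentile and 3 (9.68%) by fold, where 0.854% and 1.15% of all regions tested were. None of the 28 displaced toward higher coordinates was called higher in strength by either. These counts pair the sign of the shift with the sign of the strength change, although a direction along a chromosome is not a direction of strength. For each direction of shift, 1 region was called with the opposite sign in another measure. No difference between the directions of shift was tested. At chr12:104612973-104614475, summits lay 330, 330 and 346 bp from the start of the region with WX-02-23, at 954, 951 and 948 bp with WX-02-43, and at 951, 895 and 952 bp in DMSO. Fragments there were 103, 89 and 91 against 69, 91 and 86. At chr7:111390193-111391376, summits lay at 829, 884 and 833 bp with WX-02-23, 272, 237 and 257 bp with WX-02-43, and 269, 208 and 207 bp in DMSO. Fragments there were 76, 59 and 63 against 47, 56 and 60, a difference of 0.3 log2 units (limma adjusted p = 0.038). In both regions the DMSO summits lay at or near those of WX-02-43.

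The reverse arrangement was also seen. At chrX:130886283-130887696, summits lay at 376, 317 and 378 bp with WX-02-23, 1050, 984 and 1044 bp with WX-02-43, and 324, 327 and 325 bp in DMSO, so that the DMSO summits lay with those of WX-02-23, at 57, 41 and 48 against 46, 50 and 48 fragments. At chr4:71704500-71705796, the WX-02-23 summits lay at 1108, 1125 and 1105 bp and those of WX-02-43 at 577, 593 and 593 bp. The DMSO lists were divided between these places, at 1126, 593 and 1106 bp. A further 2 upward regions lay at chr10:3214586-3216035 and chr19:47141583-47142617, and a further 2 downward regions at chr12:100623073-100624207 and chr13:35515704-35517005. In these 4 the DMSO lists were likewise divided. The call at chr10:3214586-3216035 was lost without each library other than WX-02-23 replicate 2.

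Libraries of the same compound resembled each other in graded strength more than libraries of different compounds did. The Spearman correlation of percentiles over the 63342 shared regions was 0.918 to 0.925 within WX-02-23 and 0.92 to 0.927 within WX-02-43, against 0.879 to 0.89 for the 9 pairs between them. For fragments the values were 0.955 to 0.959, 0.955 to 0.959 and 0.925 to 0.931. Widths correlated less, at 0.843 to 0.851 and 0.845 to 0.856 within and 0.814 to 0.836 between. These correlations are across regions, which are not independent, and are given as descriptions.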

How the data were processed

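ATAC-seq peak lists of 9 libraries were read, and 6 entered the comparison of WX-02-23 with WX-02-43. The submitters' processing notes name Bowtie2, MACS2 and hg19, and 1 peak list was deposited for each library. Tool versions, peak calling settings, read shifting and duplicate removal: not given in the sources used here. The authors' deposited lists give a fold enrichment (a ratio), a −log10 p and a −log10 q per peak, set within a library, and positions. Lowest −log10 q was 2 to 2.17 and the shortest peak 150 bp. Read totals were not analysed here. The unit called a fragment here is what was stacked at a summit, reads or pairs. The lowest summit held 6 to 7 fragments.

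Intervals on chromosomes 1 to 22 and X were merged where at least 1 bp was shared, and the peak with the highest −log10 p stood for its region. Regions held by all 6 lists were fitted with limma 3.58.1 in R 4.3.3 (variance trend except for summits, Benjamini-Hochberg adjustment over all regions fitted, threshold 0.05), on the percentile, log2 fold, log2 width, summit position (minimum shift 20 bp) and, added after the data were seen, log2 fragments. Folds had no pseudocount. There is 1 pair of compounds. The members and lists were chosen with earlier results of these data known. Named regions were the 8 largest percentile differences per direction called in percentile and fold without overlap, the 6 largest fold differences with a mean percentile of at least 75, the 4 largest width differences, the 4 largest summit shifts, and the 3 one-sided regions per compound that ranked highest in their lowest list. Fits were tested on simulated data with noise of the variance that limma had fitted. Differences of 15 and 30 percentile points were recovered in 36% and 58%. For 0.5 and 1 log2 units, recovery was 39% and 98% in fold and 42% and 93% in fragments. In width it was 0% and 13%, and for summit shifts of 50 and 100 bp it was 0%. Regions left unchanged were also called, 15 in percentile, 12 in fold, 5 in fragments and 0 in width and summits. In percentile and fold these made up a larger share of the simulated calls than the threshold of 0.05. Many moderate differences were thus missed in the simulation. Each size was given to 100 regions, far fewer than were called by percentile, fold or fragments in the data. The adjustment depends on how many regions differ, so the shares recovered do not give the share missed in the data. Gene lists, markers and motifs were not used here, since they need a genome of the build. Coordinates count from 1.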

Additional observations from a re-analysis of the deposited data

How the results depend on the processing

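Directions held for every named region in each alternative run that gave it a value. In equal-length lists, where 57746 regions were tested, most regions named by percentile had no value. Such cases are in neither count of the next sentence, so that run does not show whether those calls would hold. Leaving out a library aside, named regions kept their call in 192 alternative values and missed the threshold in 33. Without each library they kept it in 208 and missed it in 56. Alternatives were planned except those for fragments, chosen after the data were seen. For percentile, regions lower with WX-02-23 numbered 929 in equal-length lists and 1156 when ranked within shared regions. Without the variance trend 79 were higher and 46 lower. With regions held by at least 3 lists, absent peaks set to percentile 0, 1244 were higher and 865 lower among 90288. Folds that were not centred gave 270 lower. Width calls were 0 and 0 for bases covered, and 25 wider when centred. Summit shifts were 72 and 61 when regions with several peaks per list were added. Fragments that were not centred gave 723 higher and 802 lower. The causes were not tested.

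Replicate numbers did not pair the samples: deviations of same-numbered libraries correlated at -0.0872, -0.0271 and -0.0401 in percentile, and none correlated best with its own number. With a replicate block, 355 regions were higher and 271 lower by percentile, and 0 in either direction by width (3705 at an unadjusted p under 0.05) or summit (2340), by limma.

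Without each library, calls ran from 152 to 547 higher and 96 to 489 lower by percentile, 243 to 416 and 273 to 492 by fold, 0 to 0 by width, 33 to 42 and 28 to 43 by summit, and 1772 to 2196 and 1517 to 1747 by fragments. One-sided regions ran from 2187 to 3620 for WX-02-23 and from 1311 to 2508 for WX-02-43. These counts cannot fall under the main ones, since the rule asks for fewer lists once a library is left out. Differences of library medians ran from -0.181 to 3.04 percentile points, 0.0687 to 0.106 in log2 fold, 5.67 to 39.8 bp in width and -36.3 to 7621 in peak number. The last reversed without WX-02-23 replicate 1 (-1.5) and without WX-02-43 replicate 1 (-36.3).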
